A study of Mus musculus with 2 samples.

Results

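The guidance genes are the semaphorins and their neuropilin and plexin receptors, the ephrins and Eph receptors, the Slits and Robo receptors, and the netrins with their Dcc and Unc5 receptors. They were chosen by gene symbol among the non-control probes of the array, which gave 69 genes of 29924 gene names and 100 probes of 39429. Of the 69 genes, 66 had a probe well above background in the treated or in the control channel of both arrays and were tested, beside 20119 genes in all. The genes not tested were Ntn5, Robo3 and Unc5d, whose probes lay at the intensity floor of 15 in all 4 channels.

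Ureters of wild-type NMRI mouse embryos, of undetermined sex, were taken at E11.5 and kept for 18 h without serum on membranes at the air-liquid interface. One group received 10 µM IWP-2, which blocks the acyltransferase Porcupine and so the secretion of WNT ligands, and the other received the solvent DMSO. Each of 2 two-colour arrays compared a pool of treated with a pool of control ureters, with the dyes exchanged on the second array. The comparison asks which transcripts of the early ureter depend on WNT secretion. Each group holds 2 pools of whole explants, so fewer cells of a type and less RNA per cell cannot be told apart. The number of arrays, not read depth, limits the precision. An adjusted p measures only the spread between these 2 arrays, with each gene's variance drawn towards that of all genes tested.

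Guidance ligands and receptors were first described in growing axons, where a bound ligand makes the growth cone turn, stop or advance. Class 3 semaphorins are secreted and bind neuropilins, which signal through plexins, whereas ephrins are anchored to the membrane and signal between touching cells through Eph receptor kinases. Slits bind Robo receptors, and netrins bind Dcc and the Unc5 receptors. The same molecules steer blood vessels and, in the urinary tract, Slit and Robo are known for placing the ureteric bud, and ephrin signalling for the connection of the ureter to the bladder.

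Of the 66 tested guidance genes, 4 were lower with IWP-2 at a false discovery rate (FDR) of 0.05 in limma, which is 6.06% beside 1.15% of all genes tested. Another 2 were higher, which is 3.03% beside 0.611% of all genes. In either direction 9.09% of the guidance genes passed, beside 1.76% of all genes. These counts include Epha6, which was kept through its control channel alone. Under a filter that asks for both groups well above background on both arrays, Epha6 drops out and 3 of 65 guidance genes were lower, beside 219 of all 19681 genes. The lower genes were the Eph receptors Epha8, Epha7 and Epha6 and the secreted semaphorin Sema3a. The higher genes were the secreted semaphorin Sema3g and the Eph receptor Ephb1. The log2 ratio of IWP-2 over control had the same sign on both arrays in 24 lower and 22 higher guidance genes, which is 36.4% and 33.3% beside 27.5% and 28.5% of all genes, and was mixed in 20. The median over the guidance genes was -0.03, that over all genes 0, and the median size of the change was 0.21 and 0.09. At an unadjusted p under 0.05, 13 guidance genes were lower and 12 higher, or 19.7% and 18.2%, beside 4.74% and 8.67% of all genes. The counts by sign and by unadjusted p include Epha6 among the lower genes, and Dcc and Ntn4 among the higher genes. Ntn4 read 15.9 and 17.4 with IWP-2 and the floor of 15 in both controls. The Dcc probe is mostly a repeat and is placed on another chromosome than the gene, so it may not measure Dcc. The 24 also include Epha10, whose probe lay at the floor.

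**Figure D1:**
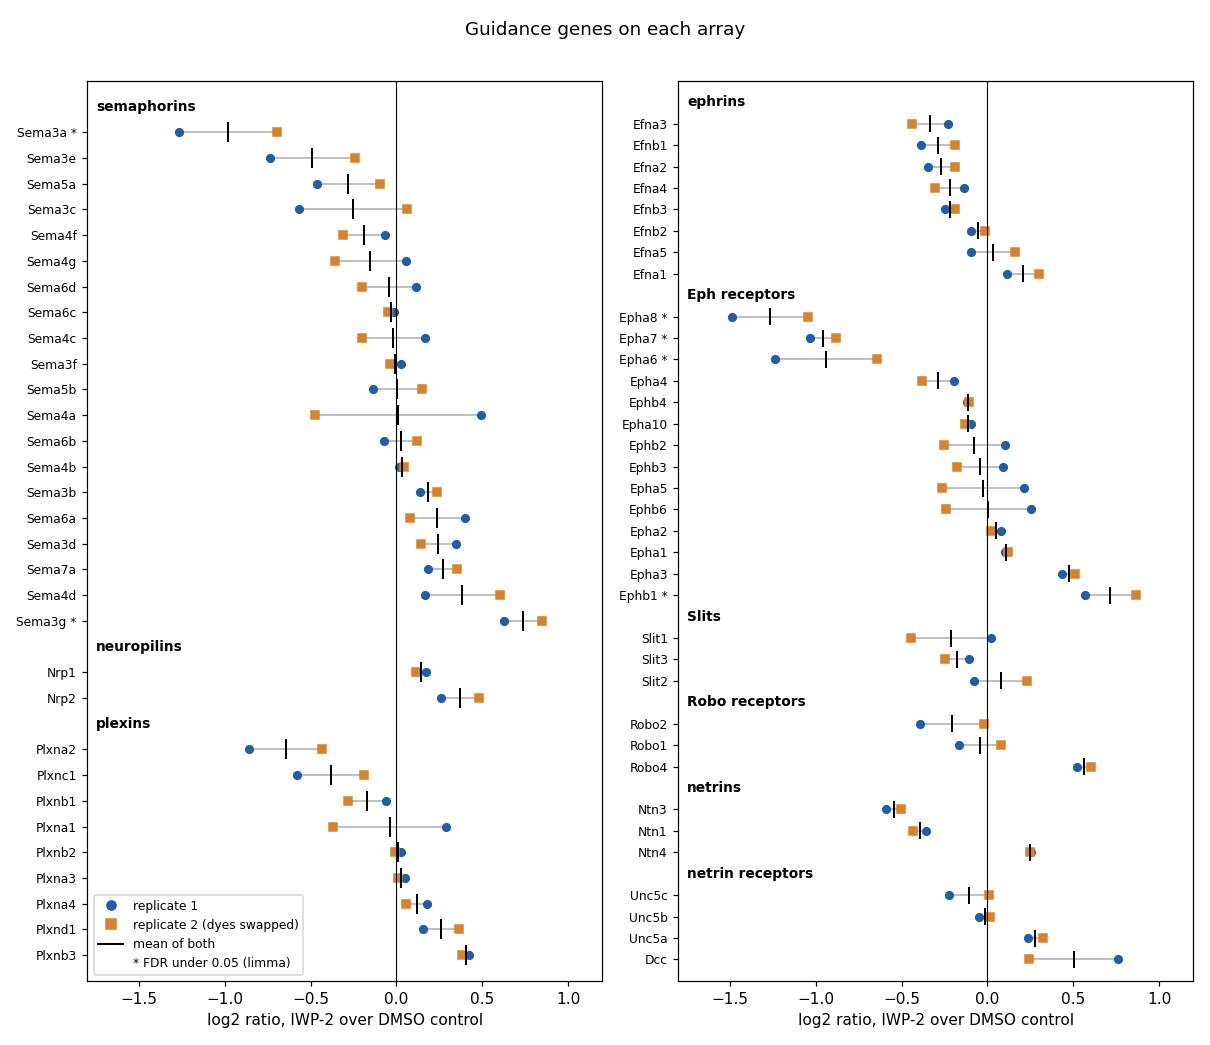
Log2 ratio of IWP-2 over DMSO control (x axis) for the 66 tested guidance genes, grouped by family and ordered by mean, with replicate 1 as circles, replicate 2 as squares and the mean as a tick. The means run from -1.27 for Epha8 to 0.74 for Sema3g, and the 6 genes past FDR 0.05 carry an asterisk.

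Of 3 known WNT targets, Nkd1 and Lef1 were lower at FDR 0.05, with mean log2 ratios of -1.31 (FDR 0.0058) and -0.89 (FDR 0.0137), and Axin2 had a mean of -1.01 and missed the threshold (FDR 0.0502). These genes were picked with earlier results in view. Over all spots, 68.6% to 70.7% were well above background in each channel, and no spot was saturated. The 2 arrays gave log2 ratios with a Pearson correlation of 0.709 over the 66 guidance genes and 0.465 over all 20119, genes that share the same 4 pools.

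Eph receptors are tyrosine kinases of a class A, which mainly binds GPI-anchored ephrin-A, and a class B, which mainly binds transmembrane ephrin-B. All 14 were tested. Among the 9 EphA receptors, 3 passed as lower and none as higher, and among the 5 EphB receptors, 1 passed as higher and none as lower. Of all genes tested, 1.15% passed as lower and 0.611% as higher. The 3 include Epha6, which was kept through its control channel alone. A difference between the classes was not tested.

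Epha7 was measured by a probe on chromosome 4, bases 28891069 to 28891128 of the mm9 build, plus strand. Its processed intensity was 1411 with IWP-2 and 2931 in the control of replicate 1, and 1546 and 2875 in replicate 2. Both treated pools lay below both control pools at about the same levels. The mean log2 ratio was -0.96 ± 0.11 (SD, n = 2; limma FDR 0.0116). The other 2 probes of Epha7 gave -0.82 and -0.98, and -1.20 and -0.77, on the 2 arrays.

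Epha8 was much dimmer. Its probe on chromosome 4, 136485335 to 136485394, minus strand, read 16.9 with IWP-2 and 73.8 in the control of replicate 1, and 15, the floor, and 32.2 in replicate 2. The treated values lay at or near the floor on both arrays, below both controls. The background-corrected log2 ratios were -1.49 and -1.05, with a mean of -1.27 ± 0.31 (SD, n = 2; limma FDR 0.0108), the lowest mean of all guidance genes.

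Epha6 (chromosome 16, 59653458 to 59653517, minus strand) read 15 and 31.1 in treated and control of replicate 1, and 15 and 17.7 in replicate 2. Both treated channels were at the floor, and the treated channel was well above background on 1 of the 2 arrays. The probe was thus kept only through the control, the group where it was higher. The computed log2 ratios were -1.24 and -0.65 (mean -0.94 ± 0.42, SD, n = 2; limma FDR 0.0404), but their size at the floor is uncertain and no call was possible under the stricter filter.

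Ephb1 went the other way. Its probe on chromosome 9, 101824549 to 101824608, minus strand, read 348 with IWP-2 and 232 in the control of replicate 1, and 457 and 247 in replicate 2. Both treated pools were above both controls, and the mean log2 ratio was 0.72 ± 0.21 (SD, n = 2; limma FDR 0.0390).

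Of the other Eph receptors, Epha3 had the highest mean, 0.47, with 898 over 649 in replicate 1 and 1098 over 783 in replicate 2 (limma FDR 0.0805). Epha4, a receptor for ephrins of both classes, had a mean of -0.29 (FDR 0.292). Epha1, Epha2, Epha10 and Ephb4 had the same sign on both arrays with means from -0.11 to 0.11. Epha5, Ephb2, Ephb3 and Ephb6 had opposite signs on the 2 arrays, with means from -0.08 to 0.01. The brightest probes of Epha5 and Ephb3 hold TG repeats of 20 and 33 bases. The other 2 kept probes of Epha5 were lower on both arrays (-0.86 and -0.79, and -0.47 and -0.34).

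**Figure D2:**
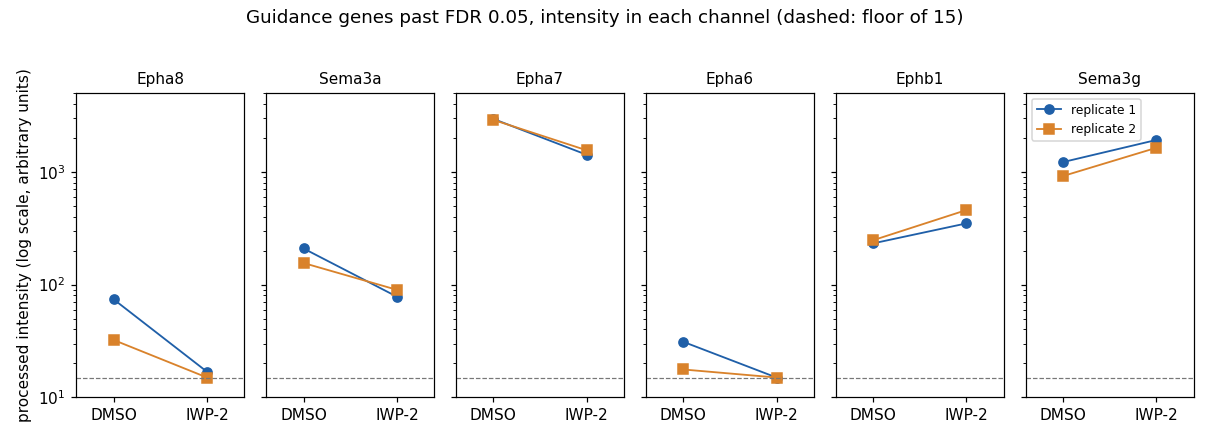
Processed intensity (log y axis) of the 6 guidance genes past FDR 0.05 in the DMSO and IWP-2 channels of replicate 1 (circles) and replicate 2 (squares), joined within an array. In each panel both treated points lie on the same side of both control points, and those of Epha6 and of Epha8 in replicate 2 lie at the floor of 15.

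The windows of 250 bases before the annotated starts of these 3 EphA genes (RefSeq, GRCm38.p6) are shown because the genes were lower on both arrays and none of the 3 windows holds CTTTGA, the core to which TCF and LEF factors are known to bind, on either strand. The windows are Epha6 at chr16:60605532-60605781 (minus strand), Epha7 at chr4:28812881-28813130 (plus strand) and Epha8 at chr4:136956817-136957066 (minus strand), 5′ to 3′, with no capitals because no core was found.
Epha6: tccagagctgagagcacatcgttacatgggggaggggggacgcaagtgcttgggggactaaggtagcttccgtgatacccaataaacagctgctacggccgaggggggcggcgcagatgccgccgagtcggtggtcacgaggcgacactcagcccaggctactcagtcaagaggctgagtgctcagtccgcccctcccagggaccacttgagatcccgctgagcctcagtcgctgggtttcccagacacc
Epha7: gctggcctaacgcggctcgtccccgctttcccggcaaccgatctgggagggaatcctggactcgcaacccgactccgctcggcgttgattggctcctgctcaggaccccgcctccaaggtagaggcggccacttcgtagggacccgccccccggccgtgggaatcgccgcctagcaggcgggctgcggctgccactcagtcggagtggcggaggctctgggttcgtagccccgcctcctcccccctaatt
Epha8: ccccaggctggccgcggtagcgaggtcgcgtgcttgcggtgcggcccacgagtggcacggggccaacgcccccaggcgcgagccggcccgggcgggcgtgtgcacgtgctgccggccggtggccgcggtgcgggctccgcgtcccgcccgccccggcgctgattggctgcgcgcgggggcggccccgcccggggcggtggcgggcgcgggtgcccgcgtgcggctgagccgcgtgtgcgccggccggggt

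The core was found in 4 of the 59 guidance genes that have a window, or 6.78%. It was found in 15.8% of the 27025 genes with a window in the RefSeq table. Among those a gene can have more than 1 window, and 13.8% of their 32851 windows held the core. None of the 6 genes past FDR 0.05 held the core. The 4 genes were Epha2 (mean log2 ratio 0.05), Nrp2 (0.37), Robo4 (0.56) and Sema3e (-0.49). Their sites are shown with 10 bases on each side and the core or its complement in capitals, and the first base of the site lay 209, 146, 32 and 118 bases before the start. A match is a description of these letters, and no match says only that they are not in this window.
Epha2: cctggtggcgCTTTGAaatgagaaat
Nrp2: ggcaccttaaCTTTGAtcgcgcggcc
Robo4: atccgtttccTCAAAGctgcttccct
Sema3e: aatgagcattTCAAAGtccttcccga

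None of the 8 ephrins, the ligands of Eph receptors, passed FDR 0.05. The log2 ratio was below 0 on both arrays in 6 and above 0 on both in 1, beside 27.5% and 28.5% of all genes. The median of the means was -0.22. At an unadjusted p under 0.05, 3 of 8 were lower, beside 4.74% of all genes: Efna3 at -0.33, Efnb1 at -0.29 and Efna2 at -0.27 (limma FDR 0.231, 0.299 and 0.324). Efnb1, a transmembrane ligand, read 3062 with IWP-2 and 3786 in the control of replicate 1, and 2595 and 3036 in replicate 2. The treated pool was thus lower within each array (log2 ratios -0.38 and -0.19). The treated value of replicate 1 lay above the control of replicate 2, but these intensities were not scaled between arrays. Efna4 and Efnb3 had means of -0.22 each and Efnb2 of -0.06. Efna5 was mixed at 0.03, and Efna1, known for its expression in vessels, had the highest mean at 0.21 (FDR 0.501), with 4203 and 3864 in replicate 1 and 4386 and 3556 in replicate 2.

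**Figure D3:**
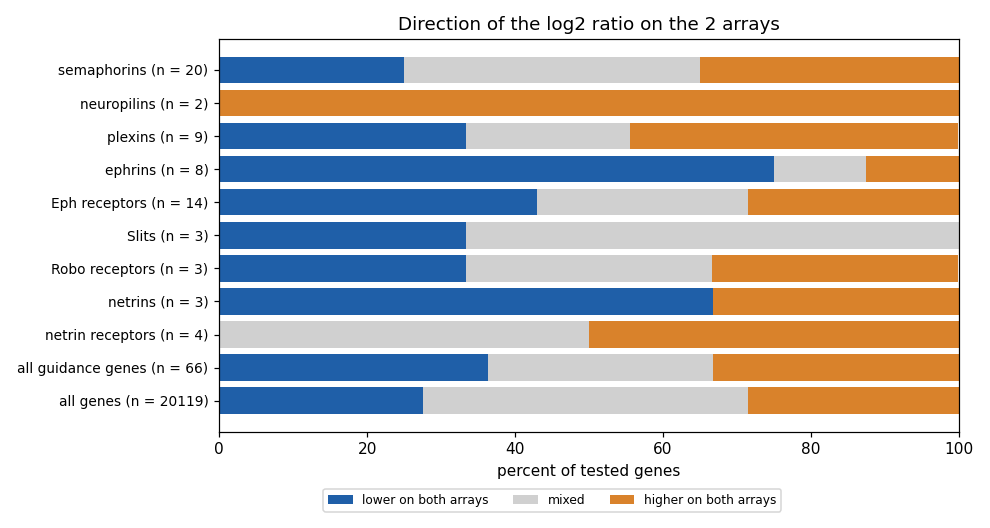
Share of the tested genes of each family (x axis, percent) whose log2 ratio was lower on both arrays, higher on both or mixed, beside all guidance genes and all genes tested. The ephrins have 6 of 8 genes lower on both arrays, and the share among all genes is 27.5%.

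Semaphorins are ligands whose class 3 members are secreted and whose classes 4 to 7 are mostly bound to membranes. All 20 were tested, and 5 were lower, 7 higher and 8 mixed across the 2 arrays, beside 27.5%, 28.5% and 44% of all genes. The median of their means was close to 0, at -8e-04.

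Sema3a, the classic repellent that signals through Nrp1 and A-type plexins, read 78.1 with IWP-2 and 209 in the control of replicate 1, and 89.8 and 155 in replicate 2 (chromosome 5, 13602462 to 13602521, plus strand). Both treated pools were below both control pools. The log2 ratios were -1.27 and -0.70, with a mean of -0.98 ± 0.40 (SD, n = 2; limma FDR 0.0344). A second probe at the floor of 15 in all 4 channels gave -0.17 and -0.36.

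Sema3g, a semaphorin known from arterial endothelium that binds Nrp2, read 1907 with IWP-2 and 1215 in the control of replicate 1, and 1625 and 914 in replicate 2 (chromosome 14, 32043435 to 32043494, plus strand). Both treated pools were above both controls. The mean log2 ratio was 0.74 ± 0.16 (SD, n = 2; limma FDR 0.0306), and the second probe gave 0.53 and 0.64.

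Among the other class 3 genes, Sema3e, the ligand of Plxnd1, had a mean of -0.49 (FDR 0.175) at intensities from 16.4 to 32.3. Sema3c was mixed, at -0.57 and 0.06, while Sema3b, Sema3d and Sema3f had means of 0.19, 0.24 and -0.01. In classes 4 to 7 no gene passed FDR 0.05. The lowest mean was that of Sema5a at -0.28, with 3214 and 4383 in replicate 1 and 4163 and 4588 in replicate 2. The highest was that of Sema4d, a ligand of Plxnb1, at 0.38, with 1156 and 1010 and then 1483 and 990. Sema4a had the widest spread of all guidance genes, with log2 ratios of 0.49 and -0.48 and an SD of 0.68. The means of Sema4b, Sema4c, Sema4f, Sema4g, Sema5b, Sema6a, Sema6b, Sema6c, Sema6d and Sema7a lay between -0.19 and 0.27.

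Of the semaphorin receptors, none passed FDR 0.05. Both neuropilins, the co-receptors for secreted semaphorins and for VEGF, had higher ratios on both arrays. Nrp2 read 3581 and 3042 in replicate 1 and 4048 and 2888 in replicate 2, with a mean log2 ratio of 0.37 (limma FDR 0.183), and Nrp1 had a mean of 0.14. Plxna2 had the lowest mean of the plexins, -0.64 ± 0.30 (SD, n = 2; FDR 0.0730), and read 3170 with IWP-2 and 5675 in the control of replicate 1, and 3770 and 5212 in replicate 2. Both treated pools lay below both controls, although the test was missed. Plxnb3 had the highest mean, 0.40 (FDR 0.123), at intensities from 22.3 to 41.2. Plxnc1, the receptor of Sema7a, had a mean of -0.38 and Plxnd1 of 0.26. Plxna1 was mixed, at 0.29 and -0.37. Plxna3, Plxna4, Plxnb1 and Plxnb2 had means from -0.17 to 0.12.

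None of the Slit, Robo, netrin and netrin receptor genes passed FDR 0.05. The netrins Ntn3 and Ntn1 were lower on both arrays. Ntn3 read 566 with IWP-2 and 824 in the control of replicate 1, and 625 and 908 in replicate 2, with a mean of -0.55 ± 0.06 (SD, n = 2; limma FDR 0.0566). Ntn1, the main secreted attractant of the family, had a mean of -0.39 (FDR 0.132) at intensities from 53.8 to 80.8. Ntn4, a netrin of basement membranes, had a mean of 0.25 at intensities from 15 to 17.4.

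Robo4, a Robo receptor of endothelial cells, read 1725 with IWP-2 and 1211 in the control of replicate 1, and 1444 and 947 in replicate 2. Both treated pools were above both controls, and the mean was 0.56 ± 0.06 (SD, n = 2), just outside the threshold at a limma FDR of 0.0522. Robo2, which together with Slit2 restricts the site of the ureteric bud, had a mean of -0.21, and Slit2 was mixed at -0.08 and 0.23. Robo1 was mixed around -0.05. Slit1 was mixed and had the lowest mean of the Slits, -0.21, at intensities from 25.1 to 46.9. Slit3 was lower on both arrays with a mean of -0.18. Among the Unc5 receptors the means were 0.28 for Unc5a, -0.02 for Unc5b and -0.11 for Unc5c, with FDR from 0.286 to 0.991.

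The netrin receptor Dcc had a mean of 0.50 (limma FDR 0.175) by its brightest probe, but its probes disagreed. That probe gave 0.76 and 0.24, and the other kept probe gave -0.29 and -0.32. The other probe was at the floor of 15 in all 4 channels, and in replicate 1 its treated channel was not well above background, so its values carry little weight. Of the 22 guidance genes with more than 1 kept probe, Dcc was the only one with a probe of the opposite sign on both arrays. The brightest probe ends in a run of GAA that covers 51 of its 60 bases, and it is placed by the file on chromosome 7, 68417162 to 68417221 of mm9, whereas RefSeq places Dcc on another chromosome.

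Epha5 showed a similar split. Its brightest probe, which holds a TG run of 20 bases, gave 0.22 and -0.27, whereas the other 2 probes gave -0.86 and -0.79, and -0.47 and -0.34. The second of these 3 probes read 254 with IWP-2 and 476 in the control of replicate 1, and 273 and 484 in replicate 2, with both treated pools below both controls. With all probes that hold a repeat of 20 or more bases left out, a setting chosen after seeing the data, Epha5 had a mean of -0.82 and passed (limma FDR 0.0156), and Dcc was left to the probe at the floor (-0.31, FDR 0.228). The count of lower guidance genes was then 5 of 64 tested, beside 242 of all 20020 genes. Such repeats were found in 160 probes of the array, or 0.406%, and in 5 of the 100 guidance probes, each the brightest of its gene: those of Dcc, Epha5, Ephb3, Sema4c and Sema6d. The last 30 bases of the brightest probe of Epha5, on chromosome 5 and chosen after its values were seen, are shown with the repeat in capitals.
Epha5: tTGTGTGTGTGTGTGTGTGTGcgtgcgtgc

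**Figure D4:**
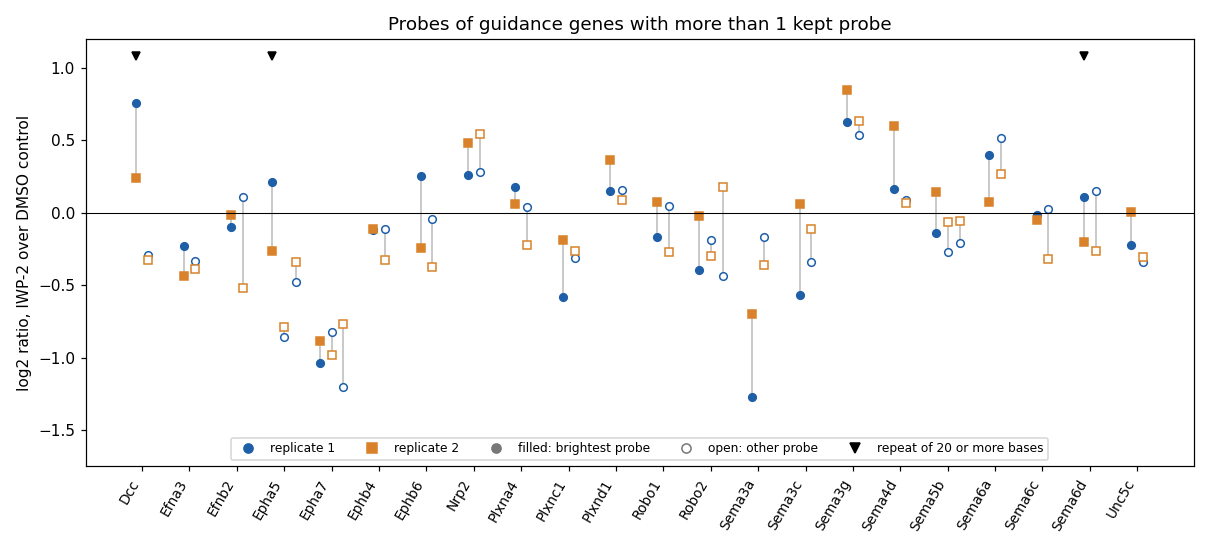
Log2 ratio of IWP-2 over DMSO control (y axis) for every kept probe of the 22 guidance genes with more than 1 kept probe, replicate 1 as circles and replicate 2 as squares, with filled symbols for the brightest probe and triangles above probes with a repeat of 20 or more bases. The probes of Epha7 lie together between -1.20 and -0.77, and those of Dcc lie on opposite sides of 0.

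The 55 genes of a list of guidance effectors and co-receptors were read beside the ligands and receptors. Of these 53 were tested, and 1 was lower and none higher at FDR 0.05, a share near the 1.15% of all genes that were lower. That gene was Dpysl4, of the collapsin response mediator proteins that act below semaphorin receptors, with log2 ratios of -0.75 and -0.64 and a mean of -0.70 (limma FDR 0.0295). The median of the list was 6e-04 and the highest mean that of Mical2, an oxidoreductase acting below plexins, at 0.40 (FDR 0.130). Farp2, an exchange factor bound by A-type plexins, had a mean of -0.45 (FDR 0.0940), and among the netrin partners Draxin had the lowest mean at -0.37 and Dscam the highest at 0.32. The partners of Slit and Robo ranged from -0.13 for Ndst1 to 0.24 for Dag1. The effectors of ephrins and Eph receptors ranged from -0.26 for Tiam1 to 0.18 for Ngef.

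Guidance genes known for roles in vessels were set beside endothelial markers. The list held 8 genes: Robo4, Ephb4, Efnb2, Plxnd1, Nrp1, Sema3g, Unc5b and Efna1. Of these 5 were higher and 2 lower on both arrays, beside 28.5% and 27.5% of all genes, and the median was 0.17. The list leaves out Sema3e, the ligand of Plxnd1, which was lower on both arrays with a mean of -0.49. All 12 endothelial markers were higher on both arrays, with a median of 0.47 and Kdr (0.74) and Cldn5 (0.65) past FDR 0.05 (limma FDR 0.0359 and 0.0347). Their summed intensity was 28580 and 24020 with IWP-2 and 20780 and 15660 in the controls, and none of the 12 was absent. The part of these cells in the higher Sema3g and Robo4 was not tested.

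Lists of markers of other cell types were read in the same way, and of the nerve, blood and epithelial markers none passed FDR 0.05. The shares of all genes higher and lower on both arrays were 28.5% and 27.5%. Nerve and neural crest markers were higher on both arrays in 10 of 12, with a median of 0.36 and a summed intensity of 91630 and 82590 with IWP-2 beside 68790 and 65430. Macrophage markers were higher on both arrays in 9 of 9 (median 0.47), with Adgre1 past FDR 0.05, blood markers in 6 of 8 (0.37) and markers of ureteric epithelium in 7 of 12 (0.26). Of 12 markers of ureteric mesenchyme, 6 were lower and 4 higher on both arrays, with a summed intensity of 99270 and 99410 with IWP-2 beside 107700 and 92000. Tbx18 (-1.03; FDR 0.0126) and Tcf21 (-0.77; FDR 0.0248) fell. Of 8 markers of kidney mesenchyme, 1 was lower and 2 higher on both arrays, with list medians of 0.19 and -0.29 in replicates 1 and 2. Meox1 rose by 0.96 (FDR 0.0286) and Gdnf had a mean of -0.39. Six2 (1.03 and -0.38), Crym (0.68 and -1.26), Pax2, Eya1 and Itga8 had opposite signs on the 2 arrays. The part of these cells in the guidance results was not tested.

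**Figure D5:**
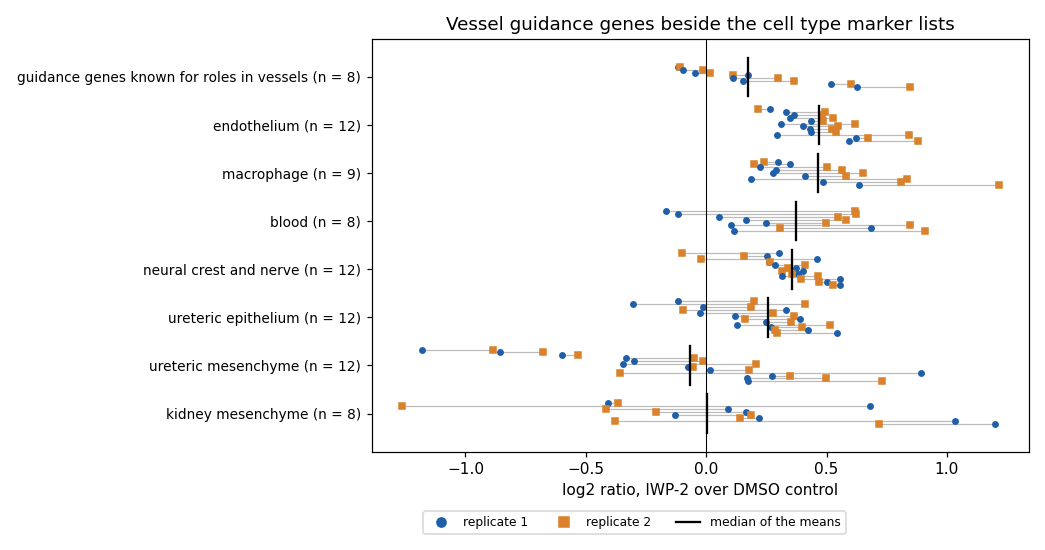
Log2 ratio of IWP-2 over DMSO control (x axis) for the genes of the vessel guidance list and of 7 lists of cell type markers, replicate 1 as circles, replicate 2 as squares, with the median of the gene means as a bar. All 12 endothelial markers lie above 0 on both arrays, and the vessel guidance genes spread from -0.11 to 0.74.

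By a filter on the processed signals, which asked for 100 or more in the brighter channel and a change of at least 2-fold in one direction on both arrays, no guidance gene was called. The filter left 55 guidance genes bright enough, and it called 50 genes of 14543 as lower (0.344%) and 11 as higher (0.0756%). Of the 6 genes past FDR 0.05, Epha6 and Epha8 were too dim for it. Epha7 had processed log2 ratios of -1.05 and -0.89, so that replicate 2 stayed short of 2-fold, and Sema3a had -1.42 and -0.79. With the scanner software's processed signals in limma, no gene of the array passed FDR 0.05. All 6 calls also ended with median centring in place of loess and with the series table. With the series table, guidance genes other than these 6 were called, 5 lower and 3 higher, beside 1323 and 1037 of all 20148 genes. All but that of Epha7 ended with no filter on dim probes, and those of Sema3a and Ephb1 with no background correction (limma FDR 0.0531 and 0.0566).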

How the data were processed

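Two-colour oligonucleotide arrays (60-base probes, 4 spots each) had been scanned and read by the authors with Agilent Feature Extraction (10.7.3.1 per the labels, 12.2.0.7 per the file headers). The deposited intensity columns hold mean, background and processed signals, the deposited flags mark spots, and the deposited series table holds a score per probe, a signed fold change to 1 decimal. In replicate 1 the treated pool carried AlexaFluor647, in replicate 2 AlexaFluor555. Here mean signals were corrected by normexp (offset 50) and loess (limma 3.58.1, R 4.3.3). Outlier spots (4.51% and 3.3%) were dropped, spots averaged and ratios turned to IWP-2 over control. A probe was kept with more than 0.5 of its spots well above background in the same group on both arrays, and the brightest kept probe stood for a gene. Log2 ratios were tested with lmFit and eBayes (1 residual and 5.52 prior degrees of freedom), adjusted by Benjamini-Hochberg over all genes tested, so every adjusted p and SE is limma's. An SD is that between the 2 arrays. Intensities are processed signals with a floor of 15, were not scaled here between arrays and are not compared between probes. Where a pool is set against a pool of the other array, this is a description only, and the log2 ratios are paired within an array. The offset shrinks ratios of dim probes. Named genes were every member within its family, with full values for those past FDR 0.05 and each family's lowest and highest. All 69 members matched RefSeq names. Scripts were tested on simulated data. Genes and lists were chosen with earlier results of these data known. Exon or UTR positions of probes were not determined. Alternatives covered correction, scaling, filters, probe rule, test, series table and each array alone.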

Additional observations from a re-analysis of the deposited data

How the results depend on the processing

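The limits are 2 arrays and dim probes: Epha6 and Epha8 lie near background. Of 12 other settings, 6 change no mean of a guidance gene, and under the other 6, 48 of the 60 guidance genes not called and all 6 called genes kept their sign. Epha7 was called under 9 of the 12, Epha8 and Sema3g under 7, Sema3a and Ephb1 under 6, and Epha6 under 6 of the 11 in which it was tested. These counts include leaving out saturated spots, which repeated the main fit because no spot was saturated. They also include leaving out repeat probes, which removed no probe of the 6 called genes. Neither setting is thus a check of these calls. The count of lower guidance genes was 4, beside 232 of all genes. It became 0 with processed signals, with median centring and at FDR 0.01, beside 0, 36 and 55 of all genes. It was 1 with no filter on dim probes, beside 98, and in a separate-channel model without a dye term, beside 84. That model was added after seeing the data. It rose to 6 with the mean over probes, eBayes trend, trend and robust prior, and FDR 0.1, beside 278, 293, 290 and 346. The count of higher guidance genes was 2, beside 123 of all genes. It became 0 under the 5 settings that left 0 or 1 lower gene, beside 0 to 21 of all genes. With no background correction it was 1, beside 74. With eBayes trend, with trend and robust prior and at FDR 0.1 it was 4, beside 224, 226 and 370. The count of other pathway genes, 1, became 0 with processed signals, median centring, no filter and the separate-channel model, 2 with the mean over probes and 8 with the series table, where 1323 and 1037 of all genes were called and 44.2% of the values were equal on both arrays. The median, -0.0288, was -0.0637 with the mean over probes and -0.0285 to 0.0169 with either array left out. The filter called 2 lower (Epha7 and Sema3a) and 2 higher genes (Ephb1 and Sema3g) at 1.5-fold, beside 1.13% and 0.502% of all genes. The other causes were not tested. The planned separate-channel model with a dye term could not be fitted, as no degrees of freedom remain within arrays. With 1 array no test is possible. Each log2 ratio is itself a paired comparison of 2 pools on 1 array, so no further block was fitted.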
